A study of Arabidopsis thaliana with 12 samples.

Results

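CYN (AT3G23490) is the Arabidopsis gene for cyanase, and it was measured here by the 1 probe that the platform annotation pairs with this gene and with no other. It is 1 of 691 genes that had a probe of their own among the 3439 probes of the array. The gene was chosen for its fall between these same groups of arrays, so its levels and differences are given as a description, with no test. Total RNA came from plants of Arabidopsis thaliana, wild type, ecotype Wassilevskija. One group of 6 arrays was from plants kept for 3 h in MS, a plant growth medium of mineral salts, with 60 mM sucrose, and the other 6 arrays were from plants given an H2O treatment, for which the labels state no time. The labels name no tissue and no plant age, and they do not say that arrays 1 to 6 of a group came from separate plants or cultures, so the spread between arrays may be technical. No group received MS or sucrose alone, so sucrose, the medium and the time of treatment cannot be told apart. In RNA of whole samples, fewer cells that express a gene and less of its RNA per cell cannot be told apart either.

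Cyanase breaks down cyanate, a toxic ion that can carbamylate proteins and that forms as urea and carbamoyl phosphate decay. The enzyme joins cyanate with bicarbonate, giving carbamate, which falls apart into ammonia and carbon dioxide, and a further carbon dioxide is released. It therefore ties the removal of cyanate to the bicarbonate supply, which carbonic anhydrases set in balance with carbon dioxide, and to ammonium, which glutamine synthetase and glutamate synthase assimilate. In Escherichia coli the cyanase gene lies in an operon with a carbonic anhydrase gene and a cyanate transport gene, and cyanate can serve that bacterium as a nitrogen source. In plants the ammonia released by cyanase can enter the same assimilation route as ammonium from nitrate.

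CYN was among the brightest probes of the array in water and was far dimmer in MS with sucrose. Its deposited intensity averaged 1.1 ± 0.131 in MS with sucrose and 8.83 ± 1.68 in water (SD, n = 6 each), so the water mean was 7.99 times the mean in MS with sucrose. In MS with sucrose, arrays 1 to 6 gave intensities of 1.29, 1.18, 0.968, 0.942, 1.11 and 1.14. In water, arrays 1 to 6 gave 8.99, 8.44, 12, 8.56, 7.65 and 7.31. All arrays in MS with sucrose were low and all arrays in water high, and the groups were far from overlapping, since the lowest water array had 5.67 times the intensity of the highest array in MS with sucrose. Complete separation in this direction occurred for 149 of all 3439 probes as deposited (4.33%), and for 764 (22.2%) when each value was divided by its array's median. CYN was chosen from this contrast, so nothing is read from its being among them.

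**Figure D1:**
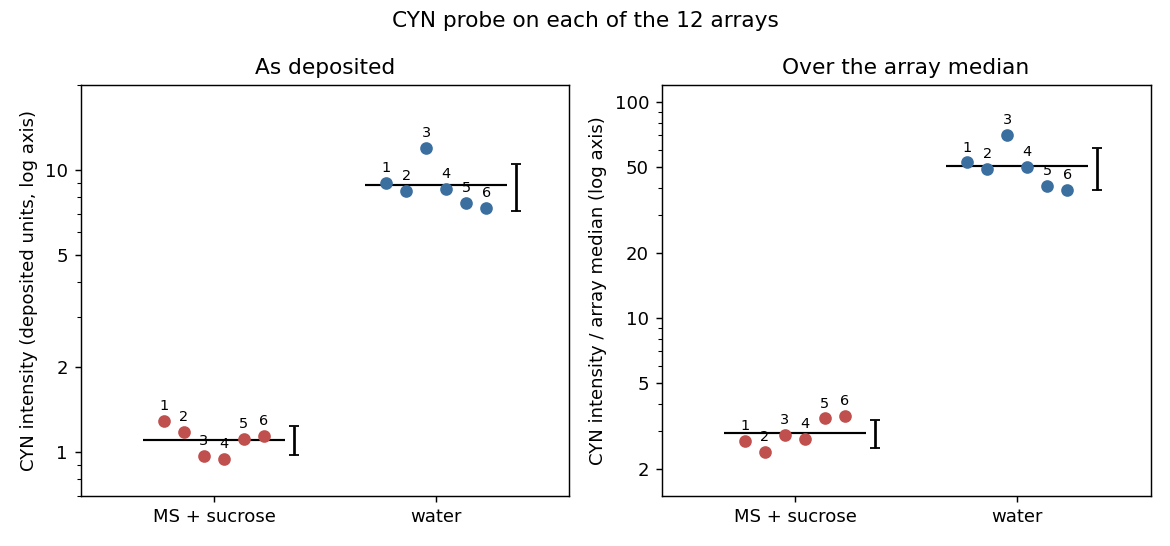
CYN intensity on each array, labelled with its array number, as deposited (left) and divided by the median of all probes of that array (right), both on log axes, with the mean as a horizontal line and the SD as a bar. The 6 arrays in MS with sucrose lie between 0.942 and 1.29 as deposited, and the 6 water arrays between 7.31 and 12.

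The arrays differed in more than this gene. Array medians were between 0.325 and 0.490 in MS with sucrose and between 0.171 and 0.188 in water, while the sum over all probes was between 3172 and 3461 on every array. The 99th percentile of an array went the other way from the median, at 12.2 ± 1.63 in MS with sucrose and 14.2 ± 1.04 in water (SD, n = 6 each). The share of probes at an intensity of 0 was 10.7% to 12.9% in MS with sucrose and 13.2% to 15.0% in water. The distribution of intensities was thus narrower in MS with sucrose, and the part of this difference in the fall of CYN was not tested. The CYN probe itself was at neither end of the scale. It was above the floor used for dim probes on every array and far below the top of the scale at 100. A value at that top may be a lower bound, but how the top arose is not stated.

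Divided by its array's median, CYN had values of 2.69, 2.40, 2.86, 2.76, 3.42 and 3.5 on arrays 1 to 6 in MS with sucrose. The corresponding values in water were 52.5, 49.2, 70.1, 49.9, 40.7 and 39.3. On this scale the gap was wider, with means of 2.94 ± 0.433 in MS with sucrose and 50.3 ± 11.1 in water (SD, n = 6 each), a ratio of 17.1. The order of the arrays within MS with sucrose depended on the scale: arrays 1 and 2, which had the highest medians, held the highest deposited CYN intensities and the lowest intensities over the median. As a share of the summed intensity of an array, CYN took 0.0327% ± 0.00353 in MS with sucrose and 0.273% ± 0.0560 in water (SD, n = 6 each).

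The rank of CYN among the probes of its own array needs no scaling factor. Counted from the brightest probe, CYN was at ranks 369, 446, 470, 495, 400 and 388 on arrays 1 to 6 in MS with sucrose. In water it was at ranks 56, 59, 41, 56, 62 and 65. On average 87.6% ± 1.45 of the other probes were dimmer than CYN in MS with sucrose and 98.4% ± 0.243 in water (SD, n = 6 each). Its probe therefore left the brightest probes of the array but stayed above most of them. Brightness also depends on the probe, so these ranks are places on the array and not an order of transcript amounts.

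Probes that changed places with CYN did so in 1 direction. There were 208 probes below CYN on all 6 water arrays and above it on all 6 arrays in MS with sucrose, 37 of them paired with 1 gene. No probe made the opposite move, from above CYN on all 6 water arrays to below it on all 6 arrays in MS with sucrose. Such a probe would need a larger deposited fall than CYN, which had the largest of all probes. CYN was chosen for its fall, so nothing is read from this direction. The 40 probes that exceeded CYN on every water array also exceeded it on every array in MS with sucrose, and 2811 probes were below it on all 12 arrays.

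**Figure D2:**
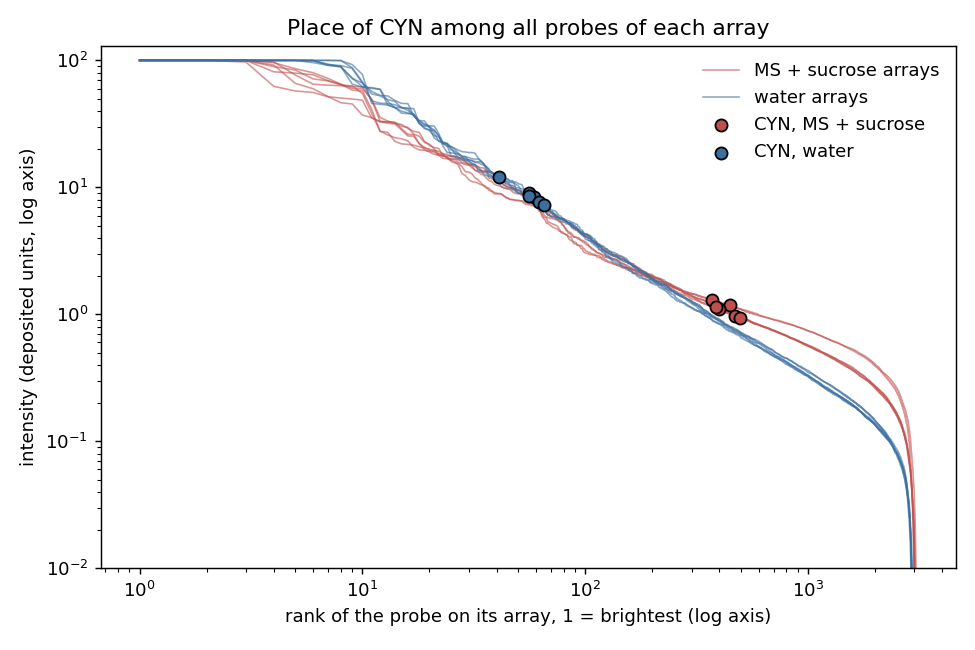
Intensity of every probe above 0 (log axis) against its rank on its array (log axis, 1 for the brightest), with 1 line per array and the CYN probe as a filled circle. CYN lies at ranks 369 to 495 in MS with sucrose and 41 to 65 in water, and the probe at rank 400 of an array had 1.08 to 1.25 in MS with sucrose and 0.835 to 0.913 in water.

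Because the distributions differed, the size of the CYN difference was computed under 6 scalings, as log2 in MS with sucrose minus log2 in water. After quantile normalization, which gives all arrays the same distribution, CYN had log2 values of -0.07 ± 0.14 in MS with sucrose and 3.02 ± 0.25 in water (SD, n = 6 each). The difference was -3.10 ± 0.116 (SE), or 8.56-fold lower in MS with sucrose. Cyclic loess, which removes trends with brightness, gave -2.84 ± 0.152, 7.17-fold lower. With the values as deposited the difference was -2.99 ± 0.125, and with each array divided by its sum it was -3.05 ± 0.128. Division by the 75th percentile gave -3.80 ± 0.136, and division by the median -4.08 ± 0.150, 16.9-fold lower. The direction was the same under all 6, and the fold ranged from 7.17 to 16.9.

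Set against all probes, CYN was at or near the end of the list of falls. It had the largest fall of all 3439 probes as deposited and after division by the sum, the 75th percentile or the median. After quantile normalization it had the fourth largest fall (rank 4) and after cyclic loess rank 5, and in both it was at rank 2 among probes paired with 1 gene. The median difference over all probes was 0.68 as deposited, 0.63 after division by the sum and -0.06 after division by the median. Relative to that median, CYN was at -3.67 as deposited and -4.02 after division by the median. The lowest 1% of probes ended at -1.78 after quantile normalization, at -1.23 as deposited and at -2.30 after division by the median, and CYN lay below these values in each case. CYN was chosen for its fall in this contrast, so these places restate that choice and nothing is read from them.

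**Figure D3:**
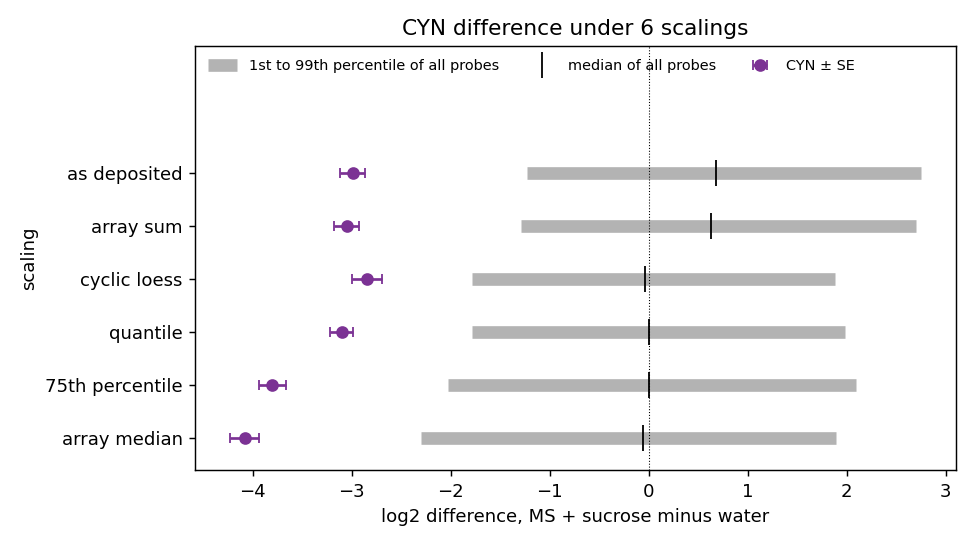
Log2 difference of CYN, MS with sucrose minus water, under 6 scalings (circles with SE, 6 arrays per group), with the range from the 1st to the 99th percentile of all 3439 probes as a grey bar and their median as a tick. CYN lies between -4.08 and -2.84, to the left of the grey bar under each scaling.

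The difference of a probe went with its brightness under some scalings, and CYN is a bright probe. Among the 344 brightest probes by mean level under each scaling, which include CYN, the median difference was -0.07 as deposited, -0.06 after quantile normalization and -1.17 after division by the array median. CYN was lower than this median by the following amounts, on the log2 scale: -2.92 as deposited, -3.04 after quantile normalization and -2.92 after division by the array median. The 5th percentile of these bright probes was -1.26 as deposited, -1.33 after quantile normalization and -2.36 after division by the array median. Division by the median moves every probe above the floor on all arrays by the same amount relative to the deposited values, so the distance of CYN from this median is the same in both by construction. Of these 344 probes, 0 had a larger fall than CYN under any of these 3 scalings. As deposited and after division by the median, this follows from CYN having the largest fall of all probes. CYN was chosen for its fall, so nothing is read from its distance to the other bright probes.

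**Figure D4:**
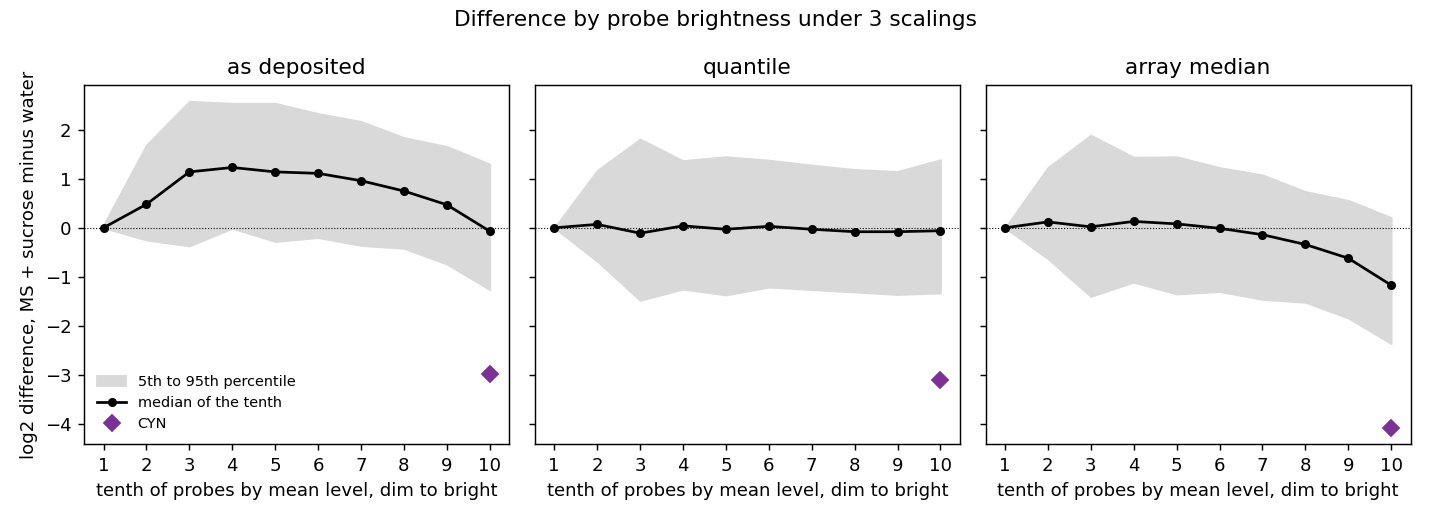
Median log2 difference (MS with sucrose minus water) of probes in 10 groups of equal size from dim to bright, with the 5th to 95th percentile as a band, under 3 scalings, and CYN as a diamond in the brightest group. The median of the brightest group is -0.07 as deposited, -0.06 after quantile normalization and -1.17 after division by the array median, and CYN lies below the band in each panel.

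Arrays of both groups carry numbers from 1 to 6, so the CYN difference was also computed number by number. After quantile normalization it was -2.94, -3.10, -3.66, -3.30, -2.86 and -2.71 for numbers 1 to 6, and after cyclic loess -2.48, -2.54, -3.56, -3.09, -2.73 and -2.65. The deposited water intensity was 6.98, 7.17, 12.4, 9.09, 6.88 and 6.41 times that in MS with sucrose for the same numbers. Number 3 had the largest difference under all 6 scalings, as water array 3 had the highest CYN value of its group. The other 5 water arrays averaged 8.19 ± 0.690 (SD), which was 7.42 times the mean in MS with sucrose.

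Consecutive array numbers (1 and 2, 3 and 4, 5 and 6) were alike, with Spearman correlations over probes of 0.942 to 0.948 in MS with sucrose and 0.959 to 0.974 in water, where other combinations had 0.847 to 0.923 in MS with sucrose and 0.933 to 0.961 in water. The labels state no such couples. The CYN difference is therefore also given for each of them. After quantile normalization it was -3.02 for couple 1 and 2, -3.48 for couple 3 and 4, and -2.79 for couple 5 and 6. As deposited it was -2.82, -3.41 and -2.73 in the same order.

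Within a group CYN varied by less than most probes in MS with sucrose and by about the usual amount in water. Its SD after quantile normalization was 0.14 in MS with sucrose and 0.25 in water on the log2 scale (n = 6 each). Over the 2407 probes above the floor on all 12 arrays, the median SD was 0.36 in MS with sucrose and 0.20 in water. An SD smaller than that of CYN was found for 4.69% of these probes in MS with sucrose and for 63.6% in water. These probes were not matched to CYN in brightness, and CYN is a bright probe. CYN was also chosen from this contrast, so nothing is read from its spread.

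Few genes that act around cyanase could be followed. Of 81 genes in 5 lists (cyanate and cyanide, carbonic anhydrases, bicarbonate-using carboxylases, nitrate and ammonium assimilation, arginine and urea), CYN and 1 other gene had a probe of their own. None of the 19 carbonic anhydrase genes, which supply or use bicarbonate, had one. The same held for the 14 genes of carboxylases and carbamoyl phosphate synthetase, among them those of phosphoenolpyruvate carboxylase and acetyl-CoA carboxylase. It also held for the 29 genes of nitrate and ammonium uptake and assimilation, among them those of nitrate reductase and glutamine synthetase. The other 7 genes of the cyanate and cyanide list, such as that of beta-cyanoalanine synthase, which detoxifies cyanide, had none either. These pathways were therefore not analysed here beyond CYN.

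The 1 measured gene was AT5G10920, which encodes argininosuccinate lyase, the enzyme of the last step of arginine synthesis. It lies downstream of carbamoyl phosphate, one of the sources of cyanate. Its intensity on arrays 1 to 6 was 1.31, 1.37, 0.817, 0.838, 1.02 and 0.935 in MS with sucrose. In water it was 0.580, 0.578, 0.595, 0.606, 0.5 and 0.737. The deposited values in MS with sucrose were all above those in water, as for 37.2% of all probes, with means of 1.05 ± 0.238 in MS with sucrose and 0.599 ± 0.0774 in water (SD, n = 6 each). After quantile normalization the difference was 0.28 ± 0.14 (SE) on the log2 scale and did not pass (limma adjusted p = 0.14). By the same limma rule, an adjusted p under 0.05 over all probes, 1436 of 3439 probes were called (41.8%), 20.5% of all probes as higher and 21.3% as lower. The direction went with the scaling. The gene was higher as deposited at 0.79 (limma adjusted p = 7.6e-04), as were 53.7% of all probes by the same rule. It was also higher with cyclic loess at 0.35 (limma adjusted p = 0.036), where 22.8% of all probes were called higher. It was lower with division by the median at -0.31 (limma adjusted p = 0.020), where 30.2% were called lower. The other 10 of the 11 genes of arginine and urea metabolism had no probe of their own and were not tested.

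The labels speak of plants and no tissue, and a list of photosynthetic genes was read for this reason. Of its 40 genes 4 had a probe of their own. PSBW, a subunit of photosystem II, had an intensity of 45.9 ± 5.01 in MS with sucrose and 44.3 ± 3.21 in water. LHB1B2, a light-harvesting protein, had 12.2 ± 2.14 in MS with sucrose and 13 ± 2.5 in water. PSAN, of photosystem I, had 3.14 ± 0.614 in MS with sucrose and 2.71 ± 0.343 in water. PSBY, of photosystem II, had 1.47 ± 0.215 in MS with sucrose and 1.45 ± 0.180 in water (SD, n = 6 each, for all of them). The deposited levels of each of these genes overlapped between the groups. After quantile normalization 1 of the 4, PSBW, was called higher (0.61, limma adjusted p = 0.0053) and 0 were called lower, where 20.5% of all probes were called higher and 21.3% lower. PSBW did not pass as deposited (0.05, limma adjusted p = 0.66) or with consecutive numbers averaged (limma adjusted p = 0.11). With cyclic loess PSAN was called higher as well (0.33, limma adjusted p = 0.032). Under division by the median all 4 were called lower, as were 30.2% of all probes: LHB1B2 at -1.18 (limma adjusted p = 0.0024), PSAN at -0.90 (0.0053), PSBW at -1.05 (1.3e-05) and PSBY at -1.08 (6.4e-04). All 4 are bright probes, and the 344 brightest probes had a median difference of -1.17 under this scaling. The direction of these genes thus went with the scaling. Of 16 markers of root, seed and flower, 0 had a probe of their own, so other tissues could not be checked.

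Genes with a profile like that of CYN were found by the root mean square difference between log2 values after quantile normalization, each gene centred on its own mean over the 12 arrays. The smaller this value, the more alike 2 profiles are, and its median was 1.57 over the 691 other probes paired with 1 gene. The 5 nearest all fell, as the measure selects for this, and they are described without a test. AT2G21720 was nearest at 0.397, and only 1 of all other probes, not paired with a single gene, was closer. Its deposited intensity was 0.253 ± 0.106 in MS with sucrose and 1.22 ± 0.243 in water. Its log2 difference was -3.10 after quantile normalization and -2.38 as deposited. It scattered more than CYN, between 0.0959 and 0.389 in MS with sucrose. The chromatin remodelling gene chr31 (AT1G05490) followed at 0.577, with deposited intensities of 0.478 ± 0.179 in MS with sucrose and 1.24 ± 0.0656 in water. Its log2 difference was -2.04 after quantile normalization and -1.45 as deposited.

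AT3G56010 had a distance of 0.735, with 3 of its 6 arrays in MS with sucrose at the floor. Its deposited intensities were 0.0918 ± 0.0598 in MS with sucrose and 0.171 ± 0.0322 in water. They overlapped, reaching 0.172 in MS with sucrose and starting at 0.129 in water. Its difference was -1.87 after quantile normalization and -1.02 as deposited. AT4G22830 had a distance of 0.743. It had a bright probe, with 16.0 ± 2.09 in MS with sucrose and 67.5 ± 6.55 in water, and its difference was -1.69 after quantile normalization and -3.17 after division by the median. AT1G11730 had a distance of 0.766 and deposited intensities of 0.294 ± 0.0283 in MS with sucrose and 0.489 ± 0.0376 in water (SD, n = 6 each, for all 5 genes). Its difference was -1.69 after quantile normalization and -0.74 as deposited. The set depended on the scaling. With division by the median or with the values as deposited, AT4G22830 was nearest, followed by AT2G21720 and chr31, and these 3 were the ones of the 5 that stayed among the nearest 5. With cyclic loess 4 of the 5 stayed.

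**Figure D5:**
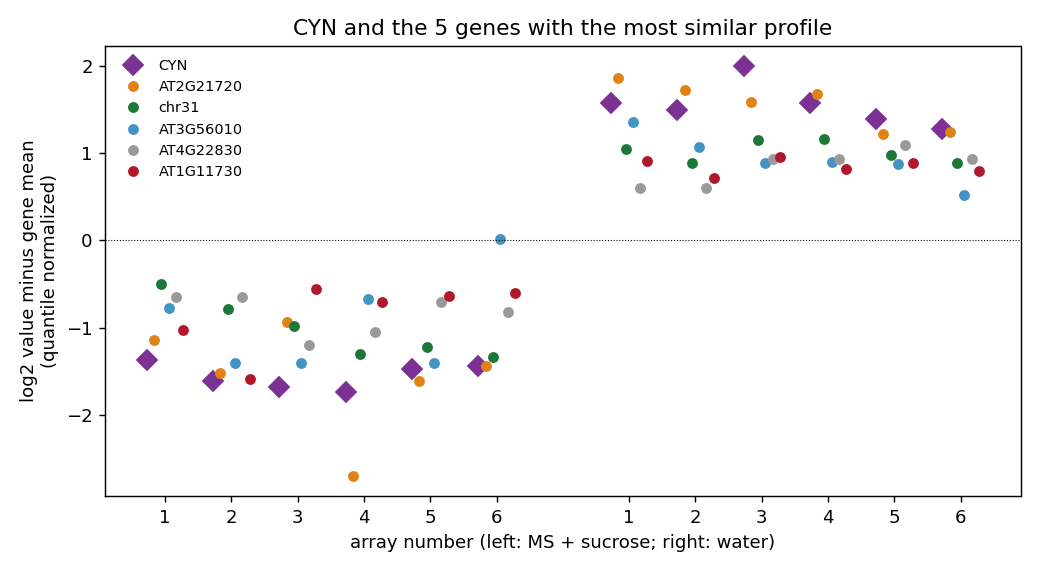
Log2 values after quantile normalization, minus each gene's mean over 12 arrays, for CYN (diamonds) and the 5 genes with the smallest root mean square difference from it (circles), by array number, with MS with sucrose at the left and water at the right. CYN lies between -1.73 and -1.37 in MS with sucrose and between 1.27 and 1.99 in water, and AT2G21720 lies closest to it on average over the arrays.

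CYN lies on chromosome 3, and the nearest measured genes there were not close. On the side of lower locus numbers they were AT3G22690, with 116 annotated genes between it and CYN, and AT3G22150, with 192 between. On the other side they were AT3G23940, with 62 between, and AT3G24190, with 94 between. AT3G22690, which encodes a pentatricopeptide repeat protein, was listed at 0 on all 12 arrays. AT3G22150, of the same protein family, had 0.0837 ± 0.0322 in MS with sucrose and 0.0988 ± 0.0288 in water, and was called lower after quantile normalization at -1.17 ± 0.23 (limma adjusted p = 0.0018) but not as deposited at -0.22 (limma adjusted p = 0.52). AT3G23940, which encodes dihydroxyacid dehydratase of branched-chain amino acid synthesis, had 0.318 ± 0.133 in MS with sucrose and 0.0841 ± 0.0131 in water (SD, n = 6 each). It was called higher as deposited at 1.85 (limma adjusted p = 2.7e-05), where 53.7% of all probes were called higher. The size went with the scaling, and after quantile normalization it was called higher at 0.67 ± 0.19 (limma adjusted p = 0.014). AT3G24190 differed by 0.04 ± 0.83 and did not pass (limma adjusted p = 1.0). Of these 4 genes 2 were called after quantile normalization, against 41.8% of all probes. None of the 116 nearest annotated genes on the side of lower numbers and none of the 62 nearest on the other side had a probe of its own, so the surroundings of CYN were not analysed here.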

How the data were processed

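The authors deposited 1 intensity per probe and array on what appears to be a linear scale, from 0 to a top of 100 reached on all 12 arrays. No source used here gives the steps behind these values. The unit was therefore inferred from their range, and what a 0 means is unknown. Groups and array numbers came from the labels. GEO's platform annotation, which can be old, paired 692 probes with 1 gene and 870 with several and did not list 1877, and 690 of the 692 were matched by gene ID to RefSeq's table of assembly TAIR10.1, used for names and gene order only. Chromosome 3 is from that table, and no genome build is named for the probes.

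Arrays were scaled to a common median. A floor of 0.0489, the 5th percentile of all positive values after scaling, replaced lower values. Then log2 was taken and arrays were quantile normalized. Other genes were tested with limma 3.58.1 (R 4.3.3; lmFit, eBayes, Benjamini-Hochberg over 3439 probes, threshold 0.05), tested on simulated data. Differences are on the floored log2 scale, which understates those of dim probes. Arrays carry no counts, so their number limits the precision. The SE of CYN comes from the SDs of its 2 groups of 6 arrays. This SE and the limma fit take the 6 arrays of a group as independent. Were consecutive numbers repeats of the same RNA, which the labels do not state, the SEs and p-values would be too small.

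The gene, the lists and the alternatives were chosen with earlier results of these data known. Named genes are CYN, measured list genes, the 5 nearest profiles and the nearest measured genes on the chromosome (up to 2 on each side). Alternatives were the scalings, a floor at the 10th percentile, 0.2 added in place of a floor, the dimmest 25% of probes left out, a threshold of 0.01, a replicate block, couples of consecutive numbers averaged or alone, and each array left out.

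The labels do not say that array numbers pair samples. After the group means were subtracted, the correlation over probes between the 2 arrays of a number was 0.435, 0.333, 0.273, 0.248, 0.208 and 0.195 from number 1 to number 6, each over 0.1, and the arrays were therefore treated as paired by number in a further fit. Figures were drawn with matplotlib 3.10.9.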

Additional observations from a re-analysis of the deposited data

Results flagged for a closer look

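In a search of 22 sets of 6 arrays (CYN under 9 measures and argininosuccinate lyase under 2, in both groups), 2 sets had 1 array that stood apart, meaning that more than 0.625 of the range lay between it and its nearest neighbour. Chance sets apart about 1 set in 20, but the sets share arrays and the measures of a gene restate the same intensities. The 2 of 22 sets therefore cannot be weighed against that share. Both were water array 3 for CYN: the gap was 0.643 of the range for the deposited intensity (12 against 7.31 to 8.99 on the other 5) and 0.638 for the log2 value after cyclic loess (3.58 against 2.77 to 3.06). Under the other scalings the same array was also the highest of its group for CYN, with gaps between 0.501 and 0.587 on the log2 scale. For the intensity over the array median its gap was 0.572. For the rank of CYN it was 0.625, at the limit and not beyond it.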

How the results depend on the processing

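The CYN difference was negative under all 26 alternatives run. The groups did not overlap for CYN, so leaving out arrays or taking couples of numbers alone could not change this sign. A replicate block or the averaging of couples keeps the same difference by construction. From -3.10 after quantile normalization the CYN difference moved by more than the spread between arrays with median centring (-4.08), 75th percentile scaling (-3.80), cyclic loess (-2.84), 0.2 added in place of a floor (-2.85), numbers 3 and 4 alone (-3.48) and numbers 5 and 6 alone (-2.79). With 1 array left out it was between -3.18 and -2.98. The replicate block, which pairs arrays by number, left it at -3.10, gave 1383 called probes and changed no call of argininosuccinate lyase (limma adjusted p = 0.22) or of the photosynthetic genes. The count of called probes, 1436, was 730 with couples of numbers averaged and between 1323 and 1470 with 1 array left out. Among probes above 0 on all 12 arrays the mean percentile of CYN was 84.5 in MS with sucrose and 98.0 in water, against 87.6 and 98.4 among all probes. Among all probes with 1 array left out it was 87.2 to 88.0 in MS with sucrose and 98.3 to 98.4 in water. Argininosuccinate lyase, at 0.28, reversed and passed with median centring (-0.31), passed as deposited (0.79) and with cyclic loess (0.35), and lay between 0.20 and 0.35 with 1 array left out. Reversed were also, with median centring, LHB1B2 (-1.18), PSAN (-0.90) and PSBW (-1.05), and, as deposited, LHB1B2 (-0.0893) and PSBY (0.0142). Of the alternative values of these 4 photosynthetic genes, 58 changed neither sign nor call and 5 reversed. Of those that kept their sign, 3 gained the threshold and 2 lost it (PSBW as deposited and with couples averaged). Among the reversed values, LHB1B2 and PSAN with median centring gained the threshold too. The cause was not tested. Probes near the floor limit what dim genes can show.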
